A study of Mus musculus with 34 samples.

Results

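The comparison described here set seminiferous tubule segments at stages IX-XII against segments at stages VII-VIII from testes that carried a lentivirus for dnRARa, the dominant negative form of the retinoic acid receptor alpha. It asks which genes still switch on or off after stage VIII with the receptor blocked. The arrays were chosen by their titles, and they made up 4 of the 34 arrays in the series, 2 per stage group. The titles of the earlier group read VI-VIII while its source names read VII-VIII, and the second form is used here. All tubules came from C57BL6/j mice 6 to 8 weeks old. The dnRARa tubules were taken 5 days after the virus was injected into the adult testis. Tubules at the same stages with a control virus for Venus, a fluorescent protein, also taken 5 days after injection, and tubules from testes with no virus gave 4 arrays each. The study calls its replicates biological duplicates. The labels name neither the promoter that drove dnRARa nor the cells that took up the virus, so each array holds the RNA of every cell in the tubule, infected or not.

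The seminiferous tubule is lined by Sertoli cells, which nurse the germ cells, and its stages name the fixed sets of germ cells that occur together. Mature spermatids are released at the end of stage VIII, round spermatids begin to elongate in stage IX, and the meiotic divisions fall at the end of the IX-XII interval. Retinoic acid is made from retinol, binds its receptors as partners of the retinoid X receptors, and acts on Sertoli cells and on spermatogonia and early spermatocytes around stages VII and VIII. A dominant negative receptor occupies the binding sites of the receptor without switching the target genes on.

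Signals were measured on 1-colour Agilent arrays and are given as log2 of the background-corrected signal relative to the 75th percentile of the same array, so that a difference of 1 is 2-fold. Of the probes, 72.7% to 74.1% were well above background on the dnRARa IX-XII arrays, against 68% to 73.5% on the dnRARa VII-VIII arrays. The share was 68.6% to 74.1% on the Venus arrays and 54.8% to 61.4% on the untreated arrays. Replicate 1 of both dnRARa stage groups lay on 1 slide and replicate 2 on another, each slide scanned on its own day, so each replicate pair is also a comparison within a slide. No slide held arrays of more than 1 of these arms at these stages, so that slide and arm cannot be told apart. The untreated arrays were scanned on another day again. With 2 arrays a group, the number of arrays limits the precision of every value.

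Of 35 measured marker genes of Sertoli cells, spermatogonia, spermatocytes, spermatids, Leydig, peritubular, macrophage and endothelial cells, 34 were well above background on all 4 dnRARa arrays, and the endothelial gene Pecam1 was so on 2. The endogenous receptor gene Rara had levels of -4.00 and -4.19 in the dnRARa IX-XII tubules, against -4.42 and -3.63 in the dnRARa VII-VIII tubules, with a log2 difference of -0.07 ± 0.32 (SE, adjusted p = 0.88). Its levels were -5.03 to -4.63 on the 4 Venus arrays and -5.60 to -5.09 on the untreated arrays, where the probe was not well above background. Whether this probe also reads the dnRARa transcript is not given in the sources used here.

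Genes were counted by the name given to their probes, and 16398 of all 33370 names carried a symbol. Names without a symbol were counted as genes too. Some of them may repeat a named gene, and this was not tested. With the receptor blocked, 10625 of 23227 tested genes differed between stages IX-XII and VII-VIII at an adjusted p under 0.05, which is 45.7% of the genes tested. Of these, 5683 genes (24.5% of those tested) were higher in the dnRARa IX-XII tubules and 4942 (21.3%) were lower. A change of at least 2-fold was found for 4211 genes (18.1%), of which 1959 were higher and 2252 lower. The median log2 difference over all tested genes was 0.072. The 10622 called genes that were measured on all 4 arrays had the same sign in both replicate pairs. The calls were made from these same pairs and nearly require this, so it is no separate check. The test was limma's moderated test on all 24 tubule arrays, with 2-sided p-values adjusted by Benjamini and Hochberg over all tested genes. The spread was therefore learned from 12 groups, with 9 residual degrees of freedom. Fitted on the 4 compared arrays alone, with no other group to learn the spread from, limma called 0 genes at the adjusted threshold and 8319 genes at an unadjusted p under 0.05.

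The genes that rose furthest in the dnRARa tubules included regulators of transcription, an enzyme of haem synthesis, receptors and a family of X-linked testis genes. Alas2, the erythroid form of the first enzyme of haem synthesis, had levels of 2.07 and 1.91 in the dnRARa IX-XII tubules, against -3.34 and -3.99 in the dnRARa VII-VIII tubules. Its difference of 5.66 ± 0.15 on the log2 scale (SE, adjusted p = 2.43e-08) is 50.4-fold. Ngfr, the low-affinity receptor for neurotrophins, had 2.33 and 2.30 in IX-XII, against -2.37 and -2.60 in VII-VIII, a log2 difference of 4.80 ± 0.18. In each of these genes the 2 stage groups lay much further apart than the arrays of a group.

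Kl encodes Klotho, a partner of fibroblast growth factor receptors. It had -1.96 and -1.89 in the dnRARa IX-XII tubules, against -7.15 and -7.38 in the dnRARa VII-VIII tubules, where neither array had it well above background. Its rise was at least 23.4-fold (adjusted p = 1.15e-06). This bound sets the mean of the brighter group against the mean of the lowest signal that counted as well above background on each dim array, or the probe's own signal where that was higher. Chdh, the choline dehydrogenase of mitochondria, had 0.10 and 0.02 in IX-XII, against -5.96 and -4.44 in VII-VIII, a log2 difference of 5.26 ± 0.38.

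Helt, a basic helix-loop-helix repressor of transcription, showed the highest log2 difference among the named genes, 6.33 ± 0.36 (adjusted p = 7.26e-07). It had -0.17 and 0.20 in the dnRARa IX-XII tubules, and 1 of the 2 dnRARa VII-VIII arrays, which averaged -6.32, was not well above background. Sowahd, an ankyrin repeat gene, rose by 5.49 ± 0.45 in the same way, with -1.35 and -0.74 in IX-XII against -6.32 and -6.75 in VII-VIII. Both genes also rose in the control arms, Helt by 4.51 in Venus and 4.26 in untreated tubules, and Sowahd by 3.5 and 3.27. Their levels at stages VII-VIII were lower in dnRARa tubules than on any control array at those stages, where Helt lay between -3.85 and -2.96 and Sowahd between -3.22 and -2.13. The rise did not differ from that in Venus tubules at the adjusted threshold for either gene (adjusted p = 0.23 for Helt and 0.327 for Sowahd).

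The other genes among the 15 largest rises were Ssx9, Ssxb1, Ssxb2, Speer4b, Alox12, Tmem255a and Anxa13, with log2 differences between 4.20 and 4.74, and Olig1 and A830018L16Rik. Neither dnRARa VII-VIII array had these last genes well above background, and their rises were at least 6.18-fold and 3.77-fold. Olig1 is a helix-loop-helix regulator first known from the glia, and Alox12 a lipoxygenase that acts on arachidonic acid. Of the 15 genes, 6 lie on the X chromosome (Alas2, Sowahd, Ssx9, Ssxb1, Ssxb2 and Tmem255a). Among all genes at least 2-fold higher in dnRARa IX-XII tubules, 31 of 1216 were X-linked (2.55%), and among those at least 2-fold lower 62 of 1242 were (4.99%), beside 479 of all 13908 tested genes with a known chromosome (3.44%). Of the 15 largest falls, 2 lie on the X chromosome. The 6 X-linked rises are not all separate cases, since the Ssx genes among them moved together and the Ssxb1 and Ssxb2 probes may share signal. Among the rises as a whole the X-linked share was below that of all tested genes. Venus tubules gave 2.23% and 6.07%, and untreated tubules 2.34% and 4.71%. The X chromosome was looked at after the values were seen.

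Asb15, which carries ankyrin repeats and a SOCS box, had -5.63 and -4.47 in the dnRARa IX-XII tubules, against 2.41 and 1.77 in the dnRARa VII-VIII tubules, a log2 difference of -7.15 ± 0.64 (142-fold lower). Tbc1d23, which helps to tether vesicles at the Golgi, had -1.58 and -1.03 in IX-XII, against 5.27 and 5.15 in VII-VIII, with a difference of -6.52 ± 0.39. Hsf2, a heat shock transcription factor, had -3.79 and -3.70 in IX-XII, against 1.53 and 0.98 in VII-VIII. Its difference was -5.00 ± 0.49, and that of the related Hsfy2 was -4.56 ± 0.26.

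Cd46, a complement regulator found on the acrosome of mouse sperm, had -3.68 and -3.44 in the dnRARa IX-XII tubules, against 0.95 and 1.63 in the dnRARa VII-VIII tubules, a difference of -4.85 ± 0.68. Lrrc4c, which encodes a ligand of netrin-G1 on neurons, was not well above background on either dnRARa IX-XII array and had -2.84 and -3.38 in VII-VIII, so that it was at least 13-fold lower. The other falls in this group of 15 were those of 1700001P01Rik, Rhox11, Nim1k, Pcolce2, Sgms2, Stambpl1, Vav3, 4933436I01Rik and 4930548H24Rik, with log2 differences between -6.36 and -4.57. Rhox11 is a homeobox gene of the X-linked Rhox cluster, and Sgms2 a synthase of sphingomyelin. In the plot of the 15 largest rises and 15 largest falls by array, no gene's stage groups overlapped. The choice of the largest called changes all but fixes this, so it is no separate result. The share of all tested genes without such overlap was not computed.

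**Figure D1:**
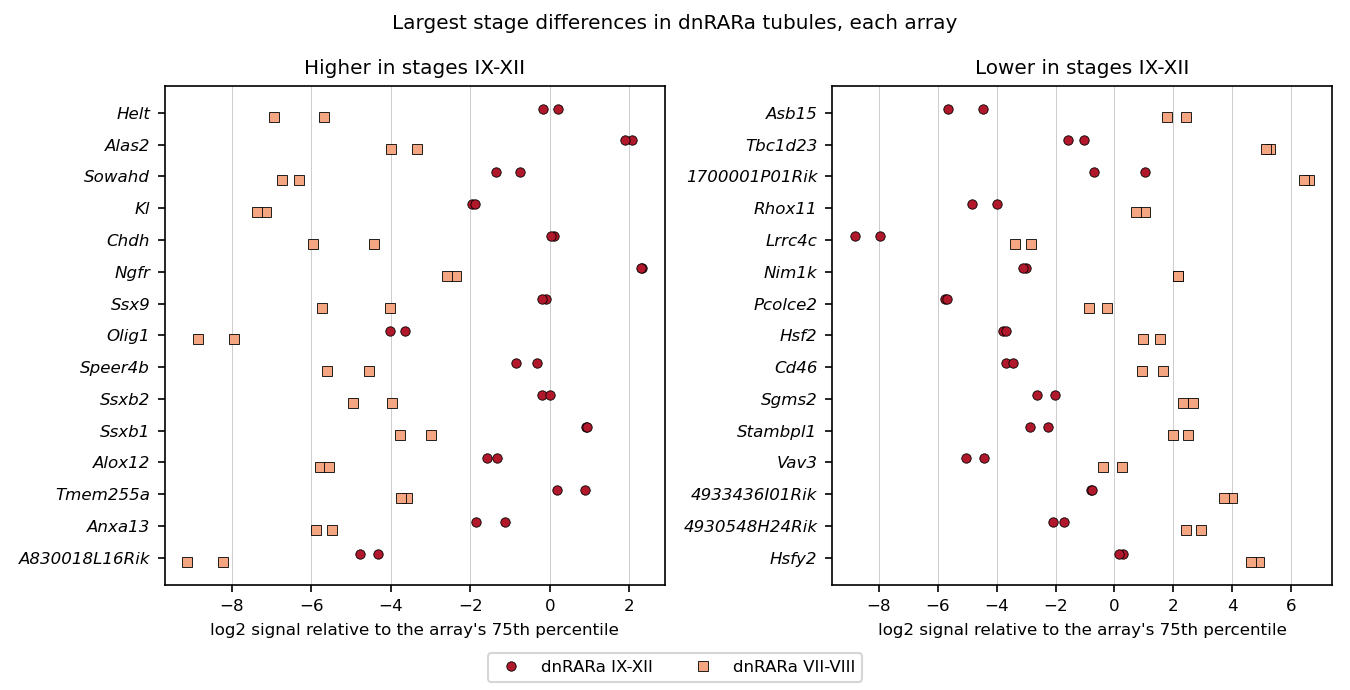
Log2 signal relative to the array's 75th percentile for the 15 genes that rose furthest (left) and the 15 that fell furthest (right) in dnRARa tubules. Each symbol is 1 array, red circles for stages IX-XII and orange squares for stages VII-VIII, 2 arrays per group. Ngfr and Alas2 show stage groups much further apart than the arrays of a group, while Asb15 and 1700001P01Rik show the wider spread of IX-XII arrays.

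Genes of cell division rose together. Of 25 members tested, 18 were higher in dnRARa IX-XII tubules and 0 were lower, beside 24.5% and 21.3% of all tested genes. The list's median was 1.02, beside 0.072 for all genes. Plk1, a mitotic kinase that starts division, had 5.21 and 5.21 in IX-XII, against 1.91 and 1.44 in VII-VIII, a log2 difference of 3.53 ± 0.17 (11.6-fold). Aurkb, the kinase of the chromosomal passenger complex, had 0.06 and 0.33 in IX-XII, against -3.76 and -2.98 in VII-VIII. Cdk1, the kinase that drives entry into division, rose by 2.11 ± 0.13, and Cenpe, a kinesin of the kinetochore, by 2.22 ± 0.14. Ccna1, the germ cell cyclin needed to finish male meiosis and a member of the pachytene list, had 5.11 and 5.00 in IX-XII, against 1.74 and 1.58 in VII-VIII. Of the 18 division genes, 17 also rose in Venus tubules.

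Genes of round spermatids and the acrosome held many of the falls. Of 31 tested, 18 were lower and 7 higher in dnRARa IX-XII tubules, beside 21.3% and 24.5% of all genes, with a median of -0.51. Eqtn, an acrosomal membrane protein, had -0.83 and -1.19 in IX-XII, against 3.41 and 2.90 in VII-VIII, a difference of -4.17 ± 0.28. Spaca1, needed to shape the acrosome, had 1.68 and 1.65 in IX-XII, against 5.74 and 5.08 in VII-VIII. Izumo1, the sperm protein that binds the egg, fell by 3.70 on the log2 scale, and Catsper3, a subunit of the sperm calcium channel, by 4.35. The 7 members that rose were Acrbp, Zpbp2, Tbpl1, Rfx2, Catsper2, Prkaca and Plaat5, by 0.30 to 1.25.

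Few of the genes that pack the sperm nucleus passed the threshold. Of 13 tested, 1 rose (H2al2a, by 0.49) and 1 fell (Rnf8, by 0.96). The transition protein genes Tnp1 and Tnp2 had log2 differences of -0.15 ± 0.32 and 0.88 ± 0.37, and the protamine genes Prm1 and Prm2 of 0.29 ± 0.23 and -0.12 ± 0.14, with adjusted p between 0.0754 and 0.743. These are among the brightest probes of the arrays, with levels between 6.59 and 8.74. The step of Tnp2 passed under 2 of 17 alternatives. Of 24 sperm tail and metabolism genes, 8 rose and 4 fell (Odf3, Tekt2, Cabyr and Ropn1), beside 24.5% and 21.3% of all tested genes. Without the replicate block 4 rose and 4 fell. Under quantile normalization and under normexp 5 rose and 4 fell.

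Early meiotic genes held 9 that were lower and 4 that were higher of 24 tested, with a median of -0.27. Of all tested genes 21.3% were lower and 24.5% higher. Rec8, the meiotic cohesin subunit, had 2.24 and 2.63 in dnRARa IX-XII tubules, against 4.62 and 4.21 in dnRARa VII-VIII tubules, a difference of -1.98 ± 0.22 (adjusted p = 3.38e-05). Msh4, Tex12, Smc3 and Tex15 also fell, by 1.06 to 1.52. The pachytene list split, with 4 genes higher and 6 lower of 18 and a median of 0.00 whose sign depends on the scaling. Its falls included Tdrd1 (by 2.0), Spag6 (by 1.93) and Piwil1 (by 1.41), and Tdrd1 and Piwil1 belong to the piRNA pathway that silences transposons.

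Among 13 tested genes of undifferentiated spermatogonia, 4 were lower (Gfra1, Id4, Pou5f1 and Cdh1) and 2 higher (Etv5 and Bcl6b). Of all tested genes 21.3% were lower and 24.5% higher. Under normexp 2 of the list were lower and 0 higher. Etv5, a transcription factor needed to keep the stem cells, had -3.40 and -3.71 in dnRARa IX-XII tubules, against -5.57 and -5.83 in dnRARa VII-VIII tubules, where 1 of the 2 arrays was not well above background. Kit, the receptor that marks differentiating spermatogonia, had a difference of -0.22 ± 0.18, with adjusted p = 0.37. DNA replication genes went both ways, with 8 higher and 5 lower of 18, and 4 and 5 under normexp.

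**Figure D2:**
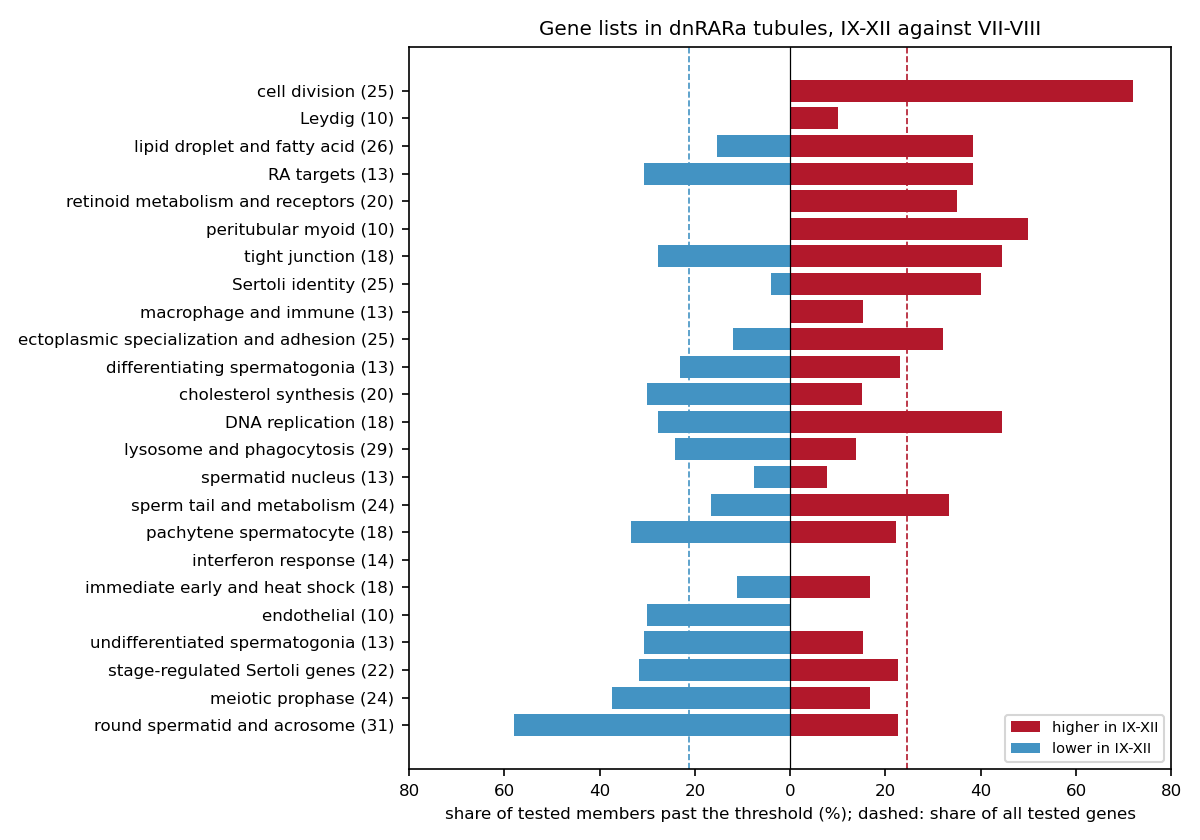
Share of the tested members of each gene list that passed the adjusted threshold in dnRARa tubules, to the right for genes higher in IX-XII and to the left for genes lower in IX-XII than in VII-VIII, with the number of tested members in brackets. The dashed lines mark 24.5% and 21.3%, the shares of all tested genes. Cell division (18 of 25 higher) and the round spermatid and acrosome list (18 of 31 lower) lie furthest from these lines.

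Among Sertoli identity genes 10 were higher and 1 was lower of 25 tested, with a median of 0.27. The shares of all tested genes were 24.5% higher and 21.3% lower. Inha, the alpha subunit of the hormone inhibin, had 1.76 and 1.59 in dnRARa IX-XII tubules, against 0.44 and 0.02 in dnRARa VII-VIII tubules, a difference of 1.44 ± 0.12. Espn, an actin-bundling protein of Sertoli cell junctions, rose by 1.80 ± 0.14, Defb36 by 1.55 and Fshr, the receptor for follicle-stimulating hormone, by 1.18 ± 0.37. The gene that fell was Ptgds, a prostaglandin synthase, with a difference of -1.08 ± 0.24. Sox9 and Cldn11, a transcription factor and the main claudin of the Sertoli cell barrier, had differences of -0.46 ± 0.18 and -0.27 ± 0.11, with adjusted p of 0.0525 and 0.059. In RNA from whole tubules, fewer cells of a type and less RNA per cell cannot be told apart.

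The Sertoli count was 6 higher and 1 lower under the normexp background correction, with a median of 0.06, and 7 higher and 1 lower without the replicate block. Markers of other cells were read beside this list, and the shares of all tested genes were 24.5% higher and 21.3% lower. Of 10 peritubular myoid genes 5 were higher and 0 lower (2 and 0 without the replicate block), and their summed signal was 45.5 to 50.1 times the 75th percentile in dnRARa IX-XII tubules, against 33 to 39.6 times in dnRARa VII-VIII tubules. For 11 Leydig genes measured, the summed signal was 37.6 to 38 in IX-XII, against 26.8 to 33.9 in VII-VIII, and 1 of 10 tested was called (Nr4a1, an immediate early receptor gene that is not restricted to Leydig cells). Macrophage genes gave 9.81 to 11.3 in IX-XII, against 7.35 to 10.6 in VII-VIII, with 2 of 13 higher, and endothelial genes 0.874 to 0.947 in IX-XII, against 1.13 to 1.16 in VII-VIII, with 3 of 10 lower. Among markers of these cells, Insl3, Acta2, Ptprc and Cdh5 were well above background on all 4 dnRARa arrays, while the endothelial gene Pecam1 was so on 2. The part of these cells in the Sertoli values was not tested.

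Genes known to change in Sertoli cells with the stage went both ways, with 5 higher and 7 lower of 22 tested. Of all tested genes 24.5% were higher and 21.3% lower. Rhox5, a homeobox gene under androgen control, had 3.92 and 4.0 in dnRARa IX-XII tubules, against 4.87 and 4.85 in dnRARa VII-VIII tubules, a fall of 0.90 ± 0.14 on the log2 scale. It fell by 1.98 in Venus and by 2.55 in untreated tubules, and its step in dnRARa tubules differed from that in untreated tubules by 1.65 (adjusted p = 0.00422) and from that in Venus tubules by 1.08 (adjusted p = 0.052). Ctsl, the protease cathepsin L that peaks around stages VI and VII, had a difference of -0.47 ± 0.09, and Plat, the tissue plasminogen activator, one of -0.93 ± 0.23. Gata1 and the activin subunit gene Inhba fell by 1.20 and 1.67. Trf, which encodes the iron carrier transferrin, rose by 1.75 ± 0.20. The fall of Plat lost its call without dnRARa VII-VIII replicate 2 (-0.85) or dnRARa IX-XII replicate 1 (-0.82).

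Tight junction genes held 8 that were higher and 5 that were lower of 18, beside 24.5% and 21.3% of all tested genes. Under normexp they held 4 and 4. Ocln, the junction protein occludin, had -3.96 and -3.54 in dnRARa IX-XII tubules, against -5.27 and -6.80 in dnRARa VII-VIII tubules, where it was well above background on 1 of 2 arrays. Cldn23 fell by 2.78 ± 0.30 and Cxadr, the virus receptor at junctions, by 1.54. Cldn3, a claudin of newly formed Sertoli junctions and under androgen control in mice, was picked after its values were seen. It had -0.59 and -0.06 in dnRARa IX-XII tubules, against -1.35 and -1.58 in dnRARa VII-VIII tubules, a rise of 1.14 ± 0.22. In control tubules its differences were -0.57 with Venus and -0.73 with no virus. The step in dnRARa tubules exceeded that in untreated tubules by 1.87 (adjusted p = 0.015) and that in Venus tubules by 1.70 (adjusted p = 0.0509).

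Lipid genes held 10 that were higher and 4 that were lower of 26, and 6 and 4 under normexp. For this list and those that follow, 24.5% of all tested genes were higher and 21.3% lower. The falls were those of Plin2, Plin3 and Plin4, which coat lipid droplets, and of Dgat2, which makes triglyceride, with 5.53 and 5.33 in dnRARa IX-XII tubules, against 7.47 and 7.51 in dnRARa VII-VIII tubules. The rises included Plin5, Cidec and Acsl6, by 0.88 to 1.32. Among cholesterol synthesis genes 6 fell and 3 rose of 20, with Cyp51 lower by 2.38 on the log2 scale. Lysosome and phagocytosis genes gave 4 higher and 7 lower of 29, with Gas6, a ligand of the phagocytosis receptors, higher by 1.37 ± 0.16. Adhesion genes gave 8 higher and 3 lower of 25. Of 14 interferon response genes and 3 erythroid genes tested, limma called 0, and 0 passed at an unadjusted p under 0.05. Of 18 immediate early and heat shock genes 3 rose and 2 fell, the falls being Dusp1 (by 2.43) and Hspa1a (by 1.58).

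The targets of retinoic acid were followed as a list of their own. Of 13 tested, 5 were higher and 4 lower in dnRARa IX-XII tubules, beside 24.5% and 21.3% of all tested genes. The median was 0.36, and under normexp 2 were higher and 3 lower with a median of 0.14. Rarb, the receptor beta gene and a classical direct target, had -5.76 and -5.87 in IX-XII and was not well above background on either VII-VIII array. It was at least 1.57-fold higher, with a log2 difference of 1.71 ± 0.35 (adjusted p = 0.00213) that turned to -0.05 under the normexp background correction. Cyp26a1, which breaks retinoic acid down, had -3.48 and -3.16 in dnRARa IX-XII tubules, against -3.84 and -4.28 in dnRARa VII-VIII tubules, and its difference of 0.74 ± 0.62 did not pass (adjusted p = 0.365). All 4 of these Cyp26a1 levels were below those of the Venus arrays, -1.08 and -1.28 in IX-XII and -1.64 and -2.60 in VII-VIII, and below those of the untreated arrays, -2.73 to -1.35.

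The promoters of Rarb and Cyp26a1 are shown since both genes hold a known response element near their start. The sequences are the 250 bases before the gene start, from RefSeq on GRCm38.p6, 5′ to 3′ on the strand of the gene, and they are chr14:16575477-16575726 on the minus strand for Rarb and chr19:37697558-37697807 on the plus strand for Cyp26a1. Capitals mark a pair of direct repeats spaced by 5 bases, each repeat being the hexamer AGGTCA or, as other spellings that were searched, AGTTCA or else the hexamer GGGTCA or else the hexamer GGTTCA, on either strand. In Cyp26a1 the repeats run on the opposite strand.
Rarb: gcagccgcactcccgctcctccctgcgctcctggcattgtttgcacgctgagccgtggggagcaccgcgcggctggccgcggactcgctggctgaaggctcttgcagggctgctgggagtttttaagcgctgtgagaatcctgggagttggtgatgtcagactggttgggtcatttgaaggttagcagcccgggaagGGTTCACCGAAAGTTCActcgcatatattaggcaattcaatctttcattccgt
Cyp26a1: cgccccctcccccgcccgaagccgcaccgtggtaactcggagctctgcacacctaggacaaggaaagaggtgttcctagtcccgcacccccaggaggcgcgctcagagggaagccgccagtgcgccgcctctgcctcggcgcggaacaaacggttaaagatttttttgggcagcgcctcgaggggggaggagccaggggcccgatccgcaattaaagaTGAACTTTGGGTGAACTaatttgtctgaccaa
Such a pair was found in 32 of 32851 mouse promoters of 300 bases (0.0974%), which include those of genes not tested here. Among 1210 promoters of genes at least 2-fold higher in dnRARa IX-XII tubules 1 held it, that of Rarb itself. Among 1286 promoters of genes at least 2-fold lower 0 did. The Stra8 promoter window held none of these pairs at a spacing of 1, 2 or 5 bases.

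Stra8, which retinoic acid induces in germ cells before meiosis, had 3.40 and 3.59 in dnRARa IX-XII tubules, against 4.58 and 4.90 in dnRARa VII-VIII tubules. Its difference was -1.24 ± 0.46 (adjusted p = 0.0458). It did not pass without dnRARa VII-VIII replicate 2 (-0.74), dnRARa IX-XII replicate 1 (-0.82) or dnRARa IX-XII replicate 2 (-1.67). The call was lost under 8 of 17 alternatives in all, median scaling (adjusted p = 0.0564) and normexp (adjusted p = 0.069) among them. Lrat, which stores retinol as ester, had -4.95 and -5.48 in IX-XII, against -2.68 and -3.33 in VII-VIII, a difference of -2.21 ± 0.22. Rdh10, which oxidises retinol, fell by 1.62 ± 0.32.

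The rises on this list included those of Dhrs3, Crabp1, Cyp26b1 and Rarb. Dhrs3, which turns retinal back to retinol, had -0.36 and -0.60 in dnRARa IX-XII tubules, against -1.77 and -1.55 in dnRARa VII-VIII tubules. Crabp1, a binding protein for retinoic acid, rose by 1.19 ± 0.14. A further list of retinoid enzymes and receptors, which does not hold Lrat, Rdh10 or the other members of the target list, had 20 tested members with a median of 0.33. Of these, 7 were higher and 0 lower, beside 24.5% and 21.3% of all tested genes, and under normexp 4 were higher with a median of 0.12. Aldh1a3, a dehydrogenase that makes retinoic acid, had -1.92 and -1.50 in IX-XII, against -3.91 and -3.34 in VII-VIII, and Dhrs4, a retinal reductase, rose by 2.32 ± 0.33. For none of the retinoid genes named here did the step differ from that in Venus or untreated tubules at the adjusted threshold, a result that does not show the steps to be alike.

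**Figure D3:**
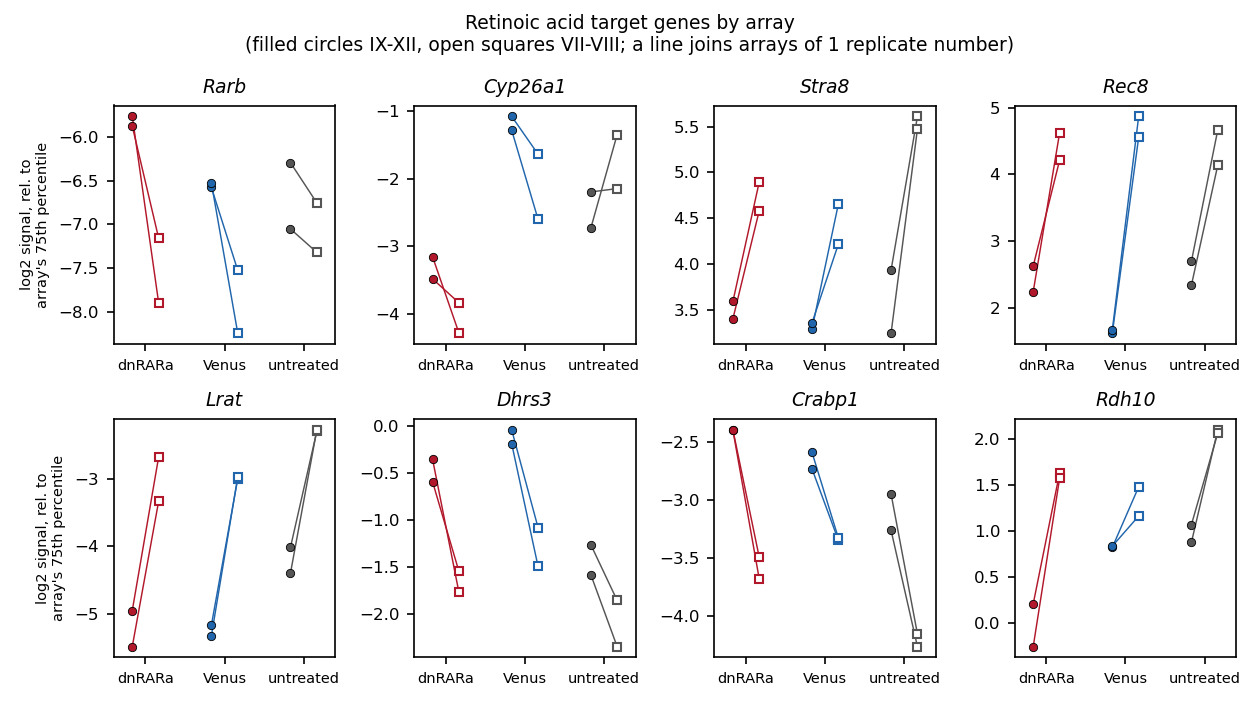
Log2 signal relative to the array's 75th percentile for 8 retinoic acid target genes, by arm, from left to right dnRARa, Venus and untreated tubules. Filled circles are arrays of stages IX-XII and open squares arrays of stages VII-VIII, and a line joins arrays of the same replicate number. Lrat, Rec8 and Stra8 were lower in IX-XII in each arm, and Cyp26a1 lay lower in dnRARa tubules at both stages.

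The stage step in dnRARa tubules was then set beside the same step in the control arms, whose arrays are separate from the dnRARa arrays. The calls are not independent, since the arms share the estimate of each gene's spread. A gene with a small shared spread passes more easily in every arm, and the part of this in the overlaps was not tested. In Venus tubules 9981 of 23152 tested genes passed (43.1%), 22.4% of those tested being higher and 20.7% lower in IX-XII. In untreated tubules 10519 of 18889 passed (55.7%), 27.9% being higher and 27.8% lower. Of the genes that rose in dnRARa tubules, 4350 also rose with Venus, which is 77.9% of the dnRARa rises and 84.1% of the Venus rises. Of the genes that fell, 3788 fell in both, 77% of the dnRARa falls and 81.1% of the Venus falls. A called change in the opposite direction was found for 27 genes that rose and 2 that fell in dnRARa tubules. Across 22574 genes the steps in the dnRARa and Venus arms had a Pearson correlation of 0.891. Single replicate pairs gave 0.88 between the 2 dnRARa pairs (23227 genes) and 0.933 between the 2 Venus pairs (23152 genes). The first value rests on steps averaged over 2 pairs and the others on single pairs, so they cannot be ranked against each other. Genes are not independent replicates.

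The genes whose stage step is shared by the control arms mostly kept it. For this, genes were taken that changed at least 2-fold and passed in both the Venus and the untreated arm, a rule set after the data were seen. A 2-fold change was called for 16.4% of genes in Venus and 21% in untreated tubules. Of 745 such genes that rose in both control arms, 724 (97.2%) rose in dnRARa tubules, beside 29.7% of the 11848 genes with a symbol tested in all 3 arms. Of 808 that fell in both, 789 (97.6%) fell in dnRARa tubules, beside 24%. These shares too rest on calls with a spread shared by the arms. The median step of the rising genes was 1.5 in dnRARa, 1.44 in Venus and 1.59 in untreated tubules, and that of the falling genes was -1.87, -1.76 and -1.84. The genes that did not pass in dnRARa tubules were 21 of the rising and 17 of the falling genes, and 2 falling genes, Lmo2 and Fgf21, were called higher. The call of Fgf21 was lost under 9 of 17 alternatives.

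Among the 21 genes that rose in both control arms and did not pass in dnRARa tubules were Lpcat1, Rell1, Insig1, Nfkbiz and Dmc1. Lpcat1, which remodels phosphatidylcholine, had -4.61 and -5.00 in dnRARa IX-XII tubules, against -4.32 and -4.62 in dnRARa VII-VIII tubules. It rose by 1.25 in Venus tubules, and by at least 5.47-fold in untreated tubules, where neither VII-VIII array had it well above background. The fitted step was lower than that in untreated tubules by 3.20 (adjusted p = 0.0175), a call lost with 5 of the 8 arrays left out (-4.12 to -2.28), and it did not differ from that in Venus tubules at the threshold (adjusted p = 0.356). Insig1, the brake on cholesterol synthesis, and Dmc1, the meiotic recombinase, had steps of 0.48 ± 0.42 and 0.58 ± 0.26, which did not differ at the threshold from those of either control arm.

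The 17 genes that fell in both control arms and did not pass in dnRARa tubules included a transporter of serotonin, a lactate exporter and a pair of glutathione transferases. Of those described here, the step differed from both control arms at the threshold for Slc6a4 alone. Slc6a4, the serotonin transporter, had -3.70 and -3.98 in dnRARa IX-XII tubules, against -3.24 and -3.84 in dnRARa VII-VIII tubules, a step of -0.30 ± 0.19. It was well above background on 1 of the 2 Venus IX-XII arrays, with a fitted fall of 2.94, and on neither untreated IX-XII array, with a fall of at least 3.43-fold. The fitted step differed from Venus by 2.64 (adjusted p = 0.00274) and from untreated by 1.83 (adjusted p = 0.00961). Gsta1 and Gsta2 had steps of -0.14 ± 0.35 and -0.15 ± 0.43 in dnRARa tubules, -3.19 and -3.37 in Venus tubules and -2.1 and -2.31 in untreated tubules. For Gsta1 the difference from Venus was 3.06 (adjusted p = 0.0348), a call lost without any 1 of the 8 arrays, and that from untreated tubules was 1.97 (adjusted p = 0.0971), while Gsta2 did not pass against either (adjusted p = 0.0662 and 0.145). These transferases are near copies of each other and their probes may share signal. Slc16a3, which exports lactate, had a step of -0.27 ± 0.34 in dnRARa tubules and falls of 2.21 in Venus and 2.23 in untreated tubules, with the differences not past the threshold (adjusted p = 0.173 and 0.0882).

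**Figure D4:**
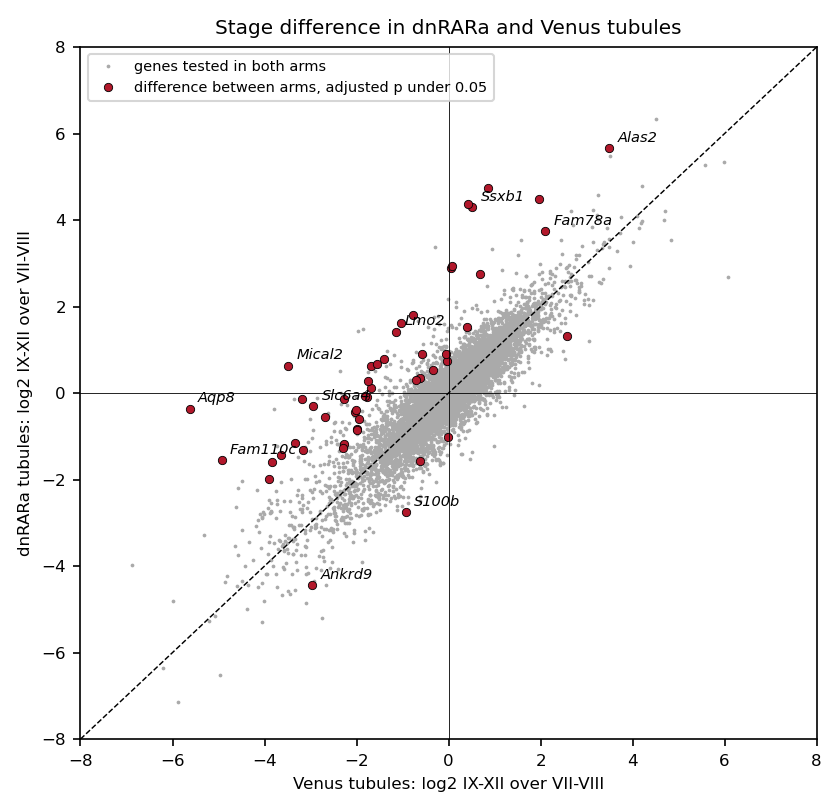
Log2 stage difference, IX-XII over VII-VIII, in dnRARa tubules (vertical) against Venus tubules (horizontal) for genes with a symbol tested in both arms, 1 grey point per gene. Red points are genes whose step differed between the arms at an adjusted p under 0.05, and the dashed line marks equal steps. Most points follow the line (Pearson correlation 0.891 over all 22574 genes tested in both, with or without a symbol), and most red points lie above it.

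Tested directly, the stage step differed between dnRARa and Venus tubules for 84 of 23805 genes (0.353%), with 76 steps higher (0.319%) and 8 lower (0.0336%) in dnRARa tubules, and 2114 genes passed at an unadjusted p under 0.05. Against untreated tubules 305 of 23373 genes passed (1.3%), 172 higher (0.736%) and 133 lower (0.569%). Steps higher in dnRARa tubules were 56.4% of these calls, and 45.9% when arrays were scaled to their median. A difference of at least 2-fold was called for 0.311% of genes against Venus and 1.1% against untreated tubules. The median step of the 45 genes with a symbol whose step was higher than with Venus was 0.31 in dnRARa, -1.69 in Venus and -0.12 in untreated tubules, and these values follow in part from how the genes were chosen. The arms lie on separate slides, and the part of the slide in these differences was not tested. Without the replicate block 60 genes passed against Venus and 125 against untreated tubules. Of the 50 genes with a symbol that passed against Venus, 10 passed whichever of the 8 arrays was left out, and 6 passed under the normexp background correction.

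Aqp8, a water channel of the tubule, gave the highest difference between the arms. It had 4.08 and 4.28 in dnRARa IX-XII tubules, against 4.44 and 4.64 in dnRARa VII-VIII tubules, and its step of -0.36 ± 0.23 did not pass. In Venus tubules it had -2.61 and -1.72 in IX-XII, against 3.21 and 3.71 in VII-VIII. In untreated tubules it had 1.67 and 2.04 in IX-XII, against 2.26 and 1.83 in VII-VIII. The Venus IX-XII arrays thus stood apart from the rest. The step differed from that in Venus by 5.26 (adjusted p = 0.0002) and from that in untreated tubules by -0.17 (adjusted p = 0.883). The neuronal phosphoprotein gene Dpysl4 behaved alike, with steps of -0.14 ± 0.15 in dnRARa, -2.27 in Venus and -0.79 in untreated tubules. Aqp8 and Dpysl4 passed under each of the alternatives run for them.

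Mical2, which oxidises actin, had -0.76 and -0.78 in dnRARa IX-XII tubules, against -1.38 and -1.43 in dnRARa VII-VIII tubules. Its step was 0.64 ± 0.33 in dnRARa, -3.49 in Venus and -0.65 in untreated tubules. Fabp1, a fatty acid binding protein, fell by 1.59 in dnRARa and by 1.97 in untreated tubules, and was at least 13.6-fold lower in Venus IX-XII tubules, where neither array had it well above background. Arhgap31 fell by 0.39, by 2.01 and by 1.13. For Mical2, Fabp1 and Arhgap31 the difference from Venus passed with any array left out, while the difference from untreated tubules did not pass (adjusted p = 0.0669 to 0.519). The normexp correction ended all 3 calls and turned that of Fabp1.

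The Ssx genes are mouse relatives of the human SSX genes, which are silent outside the testis and are known from a fusion in synovial sarcoma. Ssxb1 had 0.91 and 0.93 in dnRARa IX-XII tubules, against -2.98 and -3.77 in dnRARa VII-VIII tubules, a rise of 4.30 ± 0.24. In Venus tubules it had -2.16 and -1.66 in IX-XII, against -2.69 and -2.17 in VII-VIII, a step of 0.51, and in untreated tubules it rose by 5.10. The step in dnRARa tubules exceeded that with Venus by 3.78 (adjusted p = 0.0018) and differed from that in untreated tubules by -0.81 (adjusted p = 0.343). Ssxb2 and Ssx9 had rises of 4.36 and 4.74 in dnRARa tubules and steps of 0.41 and 0.87 with Venus. Thus the 3 probes were high on both the dnRARa and the untreated IX-XII arrays and not on the Venus ones. For Ssx9 the call against Venus was lost without Venus VII-VIII replicate 2, either Venus IX-XII array or dnRARa IX-XII replicate 2, with differences of 3.15 to 4.6 over the arrays left out.

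The promoters of Ssxb1 and Ssxb2 are shown because the genes moved together and lie close on the X chromosome, and because the copies are so alike that their probes may read each other's RNA. They span chrX:8413055-8413304 on the plus strand and chrX:8461727-8461976 on the minus strand of GRCm38.p6, from RefSeq, 5′ to 3′ on the strand of the gene. Capitals mark the longest run that both share, 41 bases that end at the gene start.
Ssxb1: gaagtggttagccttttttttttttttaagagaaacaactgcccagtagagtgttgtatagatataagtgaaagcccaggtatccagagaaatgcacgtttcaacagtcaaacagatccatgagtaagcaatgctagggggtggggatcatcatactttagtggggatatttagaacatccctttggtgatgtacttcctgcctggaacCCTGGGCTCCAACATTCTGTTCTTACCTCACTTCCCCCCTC
Ssxb2: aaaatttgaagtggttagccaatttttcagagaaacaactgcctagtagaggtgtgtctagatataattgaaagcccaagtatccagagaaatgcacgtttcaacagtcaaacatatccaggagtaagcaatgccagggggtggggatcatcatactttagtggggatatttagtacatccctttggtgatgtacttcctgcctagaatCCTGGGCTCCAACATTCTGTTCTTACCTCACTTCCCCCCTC
Aligned end to end, 229 of 258 positions were identical (88.8%). The Ssx9 promoter matched them at 48% and 50% of the aligned positions. None of these promoters held direct repeats of the kind marked in Rarb. The CRE sequence TGACGTCA was held by 1.98% of the promoters of genes at least 2-fold higher and 2.8% of those at least 2-fold lower in dnRARa IX-XII tubules. Of all 32851 promoters 1.79% held it, but these include genes not tested here. The share among tested genes was not computed, so an excess cannot be read from these values.

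Alas2 rose in each arm, by 5.66 in dnRARa, by 3.5 in Venus and by at least 63.6-fold in untreated tubules, where neither VII-VIII array had it well above background, and the dnRARa step exceeded that with Venus by 2.16 (adjusted p = 0.00274). Speer4b rose by 4.49 in dnRARa and by 1.97 in Venus tubules, with a difference from Venus of 2.52 (adjusted p = 0.0408, and 0.219 without the replicate block). Anxa13, a membrane-binding annexin, rose by 4.20 in dnRARa and by 4.69 in Venus tubules, while in untreated tubules it was well above background on 0 of 2 IX-XII and 1 of 2 VII-VIII arrays. Its fitted step differed from that in untreated tubules by 5.51 (adjusted p = 0.00833). Inha rose by 0.73 with Venus and by 0.42 with no virus, and its dnRARa step exceeded the untreated one by 1.02 (adjusted p = 0.019). That call was lost under 7 of 19 alternatives, with differences of 0.85 to 1.2 over the arrays left out. Esx1 and Drd4, picked for their lists, fell by 3.09 and 1.05 in dnRARa tubules and differed from untreated tubules by -1.45 and 0.93.

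For 14 genes of 23285 (0.0601%) the dnRARa step differed from both control arms in the same direction, and 10 of them have a symbol, a rule added after the data were seen. They are Fam110c, Slc6a4, Lmo2, Fgf21, Fam78a and Ank with a higher step in dnRARa tubules, and S100b, Ankrd9, Gpm6b and Doc2a with a lower one. Lmo2, a partner of transcription factors in blood formation, had -2.81 and -3.04 in dnRARa IX-XII tubules, against -4.68 and -4.00 in dnRARa VII-VIII tubules, a rise of 1.42 ± 0.24. It fell by 1.14 in Venus and by 1.14 in untreated tubules, and the step differed by 2.56 from each. Fgf21, a hormone of the fibroblast growth factor family, rose by 0.63 ± 0.22 in dnRARa tubules (adjusted p = 0.0384) and fell by 1.69 in Venus and by 1.29 in untreated tubules. Its rise did not pass without the replicate block (adjusted p = 0.124), under normexp (0.27 on the log2 scale) or without dnRARa VII-VIII replicate 2 (0.21), dnRARa IX-XII replicate 1 (0.82) or dnRARa IX-XII replicate 2 (0.45).

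Fam110c, a gene linked to cell spreading, had -4.01 and -4.22 in dnRARa IX-XII tubules, against -2.60 and -2.53 in dnRARa VII-VIII tubules, a fall of 1.55 ± 0.35. No Venus or untreated IX-XII array had it well above background, so that it was at least 12-fold lower in Venus and at least 3.69-fold lower in untreated IX-XII tubules. Its calls against both arms rest on fitted values of dim probes. Ank, which carries pyrophosphate out of cells, fell by 0.82 ± 0.11 in dnRARa, by 1.99 in Venus and by 2.05 in untreated tubules. Fam78a and Gpm6b were the 2 genes that rose at least 2-fold in both control arms and whose step in dnRARa tubules differed from both. Fam78a had 2.83 and 2.94 in dnRARa IX-XII tubules, against -0.89 and -0.84 in dnRARa VII-VIII tubules, a rise of 3.75 ± 0.13, and it rose by 2.1 in Venus and by 2.42 in untreated tubules.

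S100b, a calcium-binding protein best known from glia, had -1.77 and -1.96 in dnRARa IX-XII tubules, against 0.88 and 0.89 in dnRARa VII-VIII tubules, a fall of 2.75 ± 0.20. Its steps were -0.93 in Venus and -0.20 in untreated tubules, and its VII-VIII level on the dnRARa arrays was above that of every control array, -3.90 to -1.68. Gpm6b, a membrane proteolipid, rose by 1.32 ± 0.13 in dnRARa tubules, by 2.57 in Venus and by 3.25 in untreated tubules, with dnRARa VII-VIII levels of 0.25 and 0.52 above the control levels of -2.24 to -1.32. Ankrd9 fell by 4.45 ± 0.16, by 2.96 and by 2.98, and Doc2a, a calcium sensor of secretion, by 1.02 ± 0.11, by 0.01 and by 0.14. Of the 10 genes, Slc6a4 kept its calls against both control arms with any array left out. Other processing ended each of these calls under 2 of the 18 alternatives run, and its control IX-XII probes were dim. The call against Venus was lost for 8 of them without Venus VII-VIII replicate 2, Venus IX-XII replicate 1 or dnRARa IX-XII replicate 2, for 7 without Venus IX-XII replicate 2, for 6 without dnRARa IX-XII replicate 1, for 5 without Venus VII-VIII replicate 1 or dnRARa VII-VIII replicate 2, and for 1 without dnRARa VII-VIII replicate 1.

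**Figure D5:**
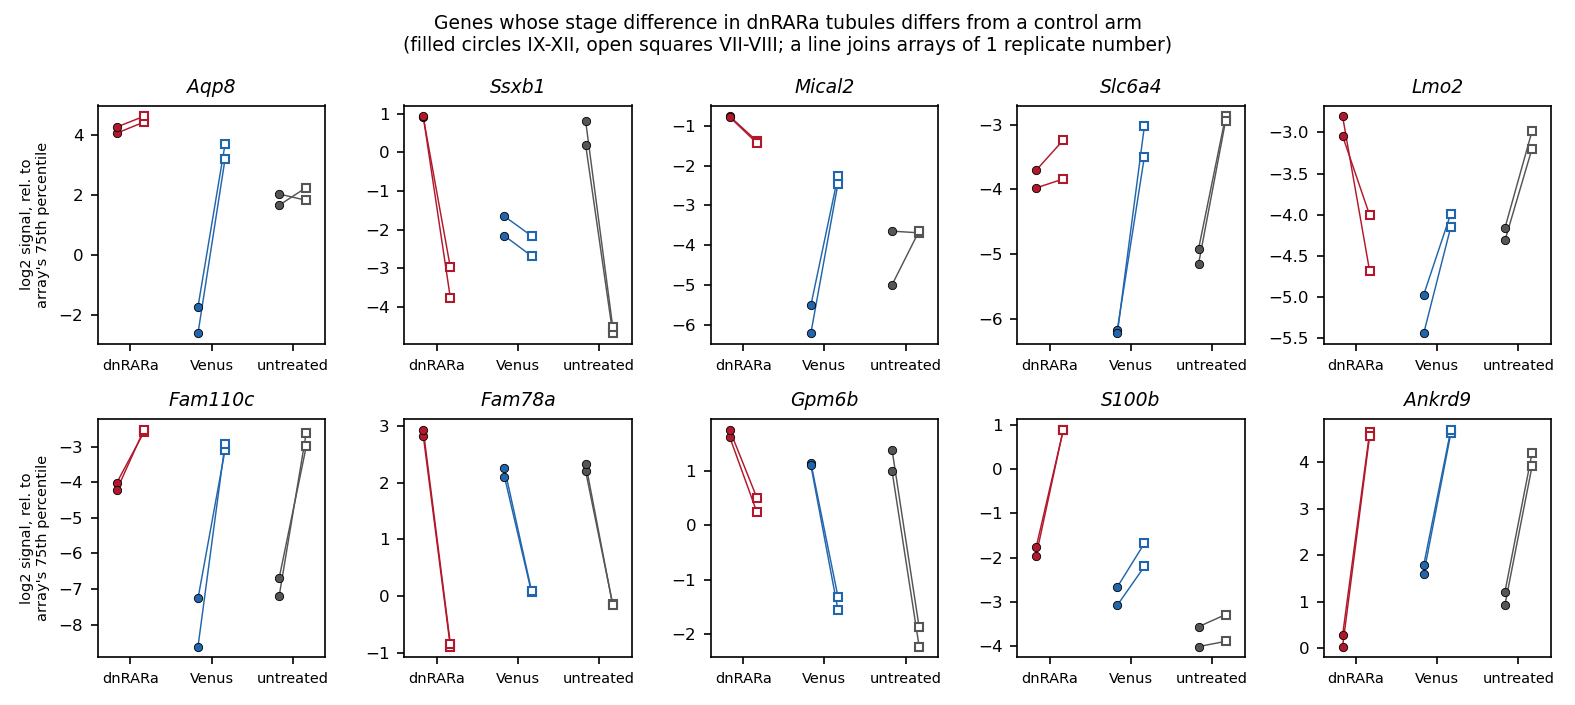
Log2 signal relative to the array's 75th percentile for 10 genes whose stage difference in dnRARa tubules differed from that in Venus tubules, by arm, from left to right dnRARa, Venus and untreated tubules. Filled circles are stages IX-XII and open squares stages VII-VIII, and a line joins arrays of the same replicate number. Aqp8 falls in Venus tubules while both dnRARa levels stay between 4.08 and 4.64, Lmo2 rises with dnRARa and falls in both control arms, and S100b is highest on the dnRARa VII-VIII arrays.

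Genes were also read as on or off by the scanner software's mark for probes well above background. By that mark 326 genes were on in both dnRARa IX-XII arrays and in neither VII-VIII array (1.4% of genes tested), and 124 were off in the same sense (0.534%). Of those with a symbol, 108 were switched on and 39 off, and the bound on the change was 2-fold or more for 19 and 30 of them. The step passed the test for 49 of the 108 and 29 of the 39, beside 45.7% of all tested genes. The mark and the test read the same 4 arrays, so these counts are no separate result. The marks depend on each array's background, and dnRARa VII-VIII replicate 2 had the highest lowest marked signal of the 4 arrays (-6.02, beside -6.92 to -6.81). In Venus tubules 0.501% of genes were switched on and 2.48% off, and in untreated tubules 0.937% and 3.26%, and these counts were not compared between arms.

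The largest switches on, beside Kl, were those of Adamts19, a secreted protease, which was at least 9.37-fold higher, Olig1 at least 6.18-fold, the junction protein gene Marveld3 at least 5.59-fold and B3galt1, a galactosyltransferase, at least 5.52-fold. Adamts19 had -3.43 and -3.05 in dnRARa IX-XII tubules, against -7.33 and -7.14 in dnRARa VII-VIII tubules, and it was switched on in the same way in both control arms. Chst5, a sulfotransferase, was at least 4.81-fold higher in dnRARa IX-XII tubules and was not well above background on any Venus or untreated array of these stages. Its step of 3.39 ± 0.44 did not differ from that in Venus at the threshold (adjusted p = 0.258). Slc16a12 and A830018L16Rik were at least 4.45-fold and 3.77-fold higher.

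The largest switches off, beside Lrrc4c, were those of Skint9 (at least 8.68-fold lower), Tafa2 (at least 8.22-fold), Sh3rf2 (at least 7.65-fold) and the potassium channel gene Kcna1 (at least 7.38-fold). Lrrc4c, Tafa2 and Kcna1 were switched off in both control arms as well. Il5ra, Cphx1 and Pax4 were at least 4.80-fold, 3.45-fold and 3.43-fold lower in dnRARa IX-XII tubules and were switched off in Venus tubules too, while in untreated tubules they were not well above background at either stage. The fitted step of Il5ra, Cphx1 and Skint9 differed from that in untreated tubules (log2 differences of -3.80, -2.53 and -4.84), but no untreated group had any of them well above background on both of its arrays.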

How the data were processed

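Total RNA (0.20 µg) was labelled with Cy3 and hybridised to 1-colour Agilent arrays, and the deposited intensity values are gProcessedSignal from Agilent Feature Extraction 9.5 per the submitters' processing notes (9.5.3.1 per the file headers), with marks for probes well above background. The series table of intensity values deposited by the authors equals them (ratio 1). The genome build and the design of the virus are not given in the sources used here. Control spots (1639 of 45018) and outlier spots (32 to 274 per array) were left out, log2 signal was set to each array's 75th percentile, and the brightest of a gene's probes stood for it (6331 genes had several). Of 41174 probes, 22951 were named by accession and 67 by symbol through RefSeq (GRCm38.p6), and 18156 kept the file's name. Genes well above background on both arrays of a compared group were tested with limma 3.58.1 (R 4.3.3), with 12 groups and replicate number within arm as a block. The pairing by replicate number came with the choice of arrays, and in the dnRARa arm a number is also a slide and scan day per the file headers; deviations of same-numbered arrays correlated at 0.288 in the dnRARa, 0.321 in the Venus and 0.198 in the untreated arm. Untreated arrays of these stages share 1 slide. Genes were named by a fixed rule: the 15 largest rises and 15 largest falls among called genes with a symbol that moved the same way in both pairs and were well above background on both arrays of the higher group; up to 4 members of each list by adjusted p (up to 2 where none passed); the 10 smallest adjusted p of each sign against Venus; the 8 largest bounds among genes switched on and off; and Rara, Rarb, Cyp26a1, Stra8, Rec8, Kit, Sox9, Cldn11, Rhox5, Ctsl, Plat, Tnp1, Tnp2, Prm1 and Prm2. Other genes in the text were chosen after their values were seen. The members and lists were chosen with earlier results of these data known.
The alternatives were no replicate block, slide as the block, fewer or all arrays in the model, quantile, median and normexp processing, other detection rules, the mean of a gene's probes, an intensity trend and each array left out in turn. P-values measure the spread between duplicates, which the study calls biological, that is left after the replicate block. The block takes out what same-numbered arrays of an arm share. The spread of a gene is pooled over all 12 groups, though the arms were not equally tight. The SD of replicate differences was 0.262 in Venus IX-XII, 0.451 in dnRARa IX-XII and 0.689 in untreated IX-XII tubules. Some genes that the naming rule or the lists hold are not reported here by name, though they stay in the counts of tested and called genes and of list members.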

Additional observations from a re-analysis of the deposited data

Results flagged for a closer look

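The stage step in dnRARa tubules, as log2 IX-XII over VII-VIII, differed from that in a control arm by limma's interaction test for the following named genes, and no explanation was weighed.

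Against Venus tubules the dnRARa step was higher by 5.26 for Aqp8, 4.13 for Mical2, 3.95 for Ssxb2, 3.87 for Ssx9, 3.78 for Ssxb1, 3.38 for Fam110c, 3.06 for Gsta1, 2.64 for Slc6a4, 2.56 for Lmo2 and 2.52 for Speer4b. It was higher by 2.32 for Fgf21, 2.26 for Fabp1, 2.16 for Alas2, 2.12 for Dpysl4, 1.65 for Fam78a, 1.62 for Arhgap31, 1.59 for 6430548M08Rik, 1.17 for Ank and 1.02 for P4ha2. The difference was -0.93 for Msrb2, -1 for Doc2a, -1.25 for Gpm6b, -1.49 for Ankrd9 and -1.81 for S100b. Of 19 alternatives, 13 ended the call against Venus for Msrb2, 11 for S100b and for Speer4b and 10 for Ankrd9. For Doc2a and Gpm6b 9 of 19 did so, and for Aqp8 and Dpysl4 0 of 19.

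Against untreated tubules the dnRARa step was higher by 5.51 for Anxa13, 2.58 for Fam110c, 2.56 for Lmo2, 2.44 for Rassf5, 2.40 for Rhobtb3, 1.92 for Fgf21, 1.87 for Cldn3, 1.83 for Slc6a4 and 1.65 for Rhox5. It was higher by 1.33 for Fam78a, 1.32 for Lgi4, 1.23 for Ank, 1.19 for Cgnl1, 1.02 for Inha and 0.93 for Drd4. The difference was -0.88 for Doc2a, -1.11 for P4ha2, -1.45 for Esx1, -1.47 for Rell1, -1.47 for Ankrd9, -1.94 for Gpm6b, -2.53 for Cphx1, -2.55 for S100b, -3.20 for Lpcat1, -3.80 for Il5ra and -4.84 for Skint9. P4ha2, a prolyl hydroxylase of collagen, differed in opposite directions from the 2 control arms. Its steps were -1.28 in dnRARa, -2.3 in Venus and -0.16 in untreated tubules. The call of P4ha2 was lost under 11 of 19 alternatives against Venus and under 4 of 19 against untreated tubules. Fam110c and Rassf5 were well above background on neither untreated IX-XII array and Lpcat1 on neither untreated VII-VIII array, and Il5ra, Cphx1, Skint9 and Anxa13 on no untreated group in full, so that their differences from untreated tubules are fitted values of dim probes. Slc6a4 was also well above background on neither untreated IX-XII array, and Fam110c and Fabp1 on neither Venus IX-XII array, and the same holds for those differences. The calls against untreated tubules were lost with 4 of the 8 arrays left out in turn for Rassf5, with 5 of 8 for Rhobtb3, Fam110c and Lpcat1, and with 6 of 8 for Rell1 and Lgi4.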

How the results depend on the processing

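The dnRARa stage step (10625 genes) was called for 8578 genes without the replicate block, 0 on the 4 compared arrays alone, 6772 under the normexp correction and 4211 with a 2-fold minimum, and for 7305 to 9213 with 1 array left out. Of 142 called named genes, 133 passed without the replicate block, 141 under quantile normalization and 113 under normexp. The normexp correction moved the median of all genes by -0.178. Under it the counts were 5953 for Venus, 6 for dnRARa minus Venus, 26 for dnRARa minus untreated, and 436 and 456 for the genes that rose and fell in both control arms. With a 2-fold minimum they were 3798 for Venus and 3971 for untreated. The intensity trend gave 234 for dnRARa minus Venus and 509 for dnRARa minus untreated. The second of these was 125 without the replicate block, 131 with slide as the block and 174 with detection on all arrays. Passing both control arms in 1 direction left 14, and dropping the 2-fold minimum gave 2527 rising and 2024 falling genes (both added after seeing the data). With 1 array left out the counts ranged from 6592 to 7488 for Venus, 9276 to 11105 for untreated, 21 to 138 for dnRARa minus Venus, 116 to 1872 for dnRARa minus untreated (the highest without untreated IX-XII replicate 1), 668 to 741 for shared rises and 723 to 817 for shared falls. The sign turned for Rarb (-0.05), and against Venus for Fabp1 (-0.29), Fam110c (-0.15) and Scube1 (-0.45), and against untreated for Rell1 (0.52), all under normexp. The causes were not tested. Probes near background, such as those of Rarb, Il5ra, Cphx1 and Skint9, give bounds in place of measured folds.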
